A study of Mus musculus with 12 samples.

Results

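The B-cell receptor signalling core was taken as 9 genes, chosen by symbol: Cd79a, Cd79b, Cd22, Syk, Lyn, Btk, Blnk, Plcg2 and Rasgrp3. They are 9 of the 24982 gene symbols in the deposited files, and all 9 were present and passed the filter on low values in each comparison. Polyadenylated RNA was sequenced from B lymphocytes taken from mouse spleens at 6 weeks of age, in 12 libraries. The groups, 4 libraries each, were WT mice (C57BL/J6), Eμ-Myc mice, and Eμ-Myc; PRPS2 KO mice, called the knockout group below, which carry the same Myc transgene and lack PRPS2. The transgene places Myc under the immunoglobulin heavy-chain enhancer Eμ, which acts in the B lineage, and PRPS2 is an enzyme that makes phosphoribosyl pyrophosphate for nucleotide synthesis. Whether the knockout covers all tissues, and how many mice gave each library, is not given in the sources used here. The labels call the libraries of a group biological replicates. The first question of the study was which genes Myc deregulates in these cells, and the second was whether loss of PRPS2 touches that programme.

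The B-cell antigen receptor is a membrane immunoglobulin that has no signalling tail of its own and signals through the heterodimer of CD79A and CD79B. When antigen binds, the kinase LYN phosphorylates the CD79 tails and SYK docks on them. SYK then phosphorylates the adaptor BLNK, which brings BTK and its substrate PLCG2 together. PLCG2 makes inositol trisphosphate, which releases calcium, and diacylglycerol, which recruits RASGRP3, an activator of Ras. CD22 is an inhibitory coreceptor: LYN also phosphorylates its tail, which then recruits the phosphatase encoded by Ptpn6.

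The labels were checked first in the targeted gene, Prps2, which had a scaled coverage of 131 ± 18.8 (SD, n = 4) in WT libraries, 240.2 ± 37.2 in Eμ-Myc libraries and 16.8 ± 1.46 in those of the knockout group. Scaled coverage here is the deposited coverage of a gene divided by 1 scaling factor per library. Myc was at 285 ± 56.0 (WT), 1868 ± 308 (Eμ-Myc) and 2208 ± 959 (knockout). All 6 B-cell markers examined (Ms4a1, Pax5, Ebf1, Pou2af1, Cd79a and Cd79b, of which the last pair are members) were above 1 in every library. Markers of other cells were present too. The summed T-cell markers (8 of 8 detected) ran from 483 to 2851 in WT, from 111 to 149 in Eμ-Myc, and were 609, 639, 34.8 and 32.9 in knockout libraries 1 to 4. Knockout libraries 3 and 4 stood apart from libraries 1 and 2, and were the most alike of all 66 pairs of libraries, with an SD of the log2 ratio of 0.14 over 7785 genes. The next pair, WT libraries 2 and 3, had 0.19. Coverage without read counts does not allow a test of whether knockout libraries 3 and 4 differ beyond sampling noise. Both were therefore kept, and several results that rest on them are also given without them.

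The promoters below show the bases before an annotated start for a pair of genes that were lower in Eμ-Myc cells (Cd22 and Rasgrp3) and a pair that did not pass the test (Blnk and Plcg2). Each is the 250 bases before a RefSeq start in GRCm38.p6 (mm10), read 5′ to 3′ on the gene's strand, with motif matches in capitals. Cd22 is at chr7:30879029-30879278 on the minus strand, with a match to the EBF1 letters.
Cd22: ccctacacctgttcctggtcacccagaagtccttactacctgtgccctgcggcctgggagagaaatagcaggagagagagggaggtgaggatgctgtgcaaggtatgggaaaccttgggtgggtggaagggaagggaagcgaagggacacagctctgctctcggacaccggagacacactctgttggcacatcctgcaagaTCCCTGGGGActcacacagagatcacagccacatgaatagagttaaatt
Rasgrp3 is at chr17:75435655-75435904 on the plus strand, with a PU.1 core on each strand.
Rasgrp3: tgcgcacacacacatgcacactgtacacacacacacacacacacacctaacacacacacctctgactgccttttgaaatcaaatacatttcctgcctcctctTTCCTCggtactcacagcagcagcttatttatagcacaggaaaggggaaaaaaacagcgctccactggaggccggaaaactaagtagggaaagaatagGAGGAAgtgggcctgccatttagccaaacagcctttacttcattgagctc
Blnk is at chr19:40994222-40994471 on the minus strand, with an octamer on the opposite strand.
Blnk: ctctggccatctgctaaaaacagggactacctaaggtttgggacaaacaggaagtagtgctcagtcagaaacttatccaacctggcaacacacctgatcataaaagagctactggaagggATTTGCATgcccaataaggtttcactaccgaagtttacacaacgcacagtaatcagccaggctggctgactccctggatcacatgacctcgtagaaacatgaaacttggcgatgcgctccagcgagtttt
Plcg2 is at chr8:117498025-117498274 on the plus strand, with an E-box, the letters that Myc and related factors bind.
Plcg2: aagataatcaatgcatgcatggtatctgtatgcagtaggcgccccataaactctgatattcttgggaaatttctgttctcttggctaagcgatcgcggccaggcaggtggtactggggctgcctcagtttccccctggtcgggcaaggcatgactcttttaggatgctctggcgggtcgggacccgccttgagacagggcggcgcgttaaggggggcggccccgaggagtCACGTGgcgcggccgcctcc
The letters searched, on both strands over 250 bases before and 50 after a start, were CACGTG (E-box), ATGCAAAT (octamer), TCCC and GGGA with any 2 bases between (EBF1), and GAGGAA (PU.1 core). RefSeq windows were found for 7 of the 9 genes, in 9 windows. The other Rasgrp3 window held no match and is not printed. The Cd22 and Blnk windows lie inside the gene spans given below, which begin further upstream.

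The E-box began 20 bases before the Plcg2 start and was found in no other member window. Of 32851 mouse promoter windows 7.15% held it. The EBF1 letters began 49 bases before the Cd22 start (0.904% of all windows), and the octamer 130 bases before the Blnk start (1.74%). PU.1 cores began 148 and 50 bases before the first Rasgrp3 start, and were also in a window of Cd79a, Syk and Btk (28.3% of all windows). A match describes these letters only.

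The signal-transmitting subunits are Cd79a and Cd79b. Cd79a (ENSMUSG00000003379.7, chr7:24897381-24902197, plus strand) had a scaled coverage of 1353, 2373, 2007 and 1314 in WT libraries 1 to 4. In Eμ-Myc it was 1498, 1747, 1363 and 1592, and in the knockout group 1395, 1452, 1187 and 1277. All Eμ-Myc libraries lay inside the WT range, which had WT 2 and 3 high and WT 1 and 4 low, and knockout libraries 3 and 4 lay just below it. Cd79b (ENSMUSG00000040592.11, chr11:106311341-106314762, minus strand) ordered the WT libraries in the same way, at 2405, 4482, 3651 and 2237 in WT. It was at 2749.9, 3695, 2679 and 3137 in Eμ-Myc, and at 2491, 2466, 2468 and 2497 in the knockout group. The 4 knockout libraries thus lay within 1.01-fold of each other, and all below the lowest Eμ-Myc library. The ratio of Cd79b to Cd79a, 2 chains that pair one to one in the receptor, held between 1.70 and 1.89 in WT, while it spanned 1.84 to 2.11 with the transgene alone and 1.70 to 2.08 in knockout cells.

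Cd22, the inhibitory coreceptor (ENSMUSG00000030577.14, chr7:30865402-30880342, minus strand), was lower in both groups with the transgene. Its scaled coverage was 956, 1578, 1651 and 906 in WT. The Eμ-Myc libraries had 704, 531, 536 and 614. The knockout libraries had 843, 774, 454 and 452. Every WT library was above every library of the other groups, and knockout libraries 1 and 2 were above all 4 Eμ-Myc libraries while 3 and 4 were below them. An antisense gene, Gm29439, overlaps Cd22, and whether the counting used strand is not stated.

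The receptor-proximal kinases did not share 1 pattern. Lyn (ENSMUSG00000042228.14, chr4:3678115-3813122, plus strand), which phosphorylates both the CD79 and the CD22 tails, was at 696, 686, 660.0 and 363 in WT. It was at 442, 388, 363 and 356 in Eμ-Myc and at 505, 435, 213 and 235 in the knockout group. WT library 4 lay among the Eμ-Myc values, so these groups overlap through that library, and knockout libraries 3 and 4 were the lowest of all 12. Lyn is also overlapped on the opposite strand by 4 small non-coding genes or pseudogenes.

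Syk (ENSMUSG00000021457.14, chr13:52583173-52648792, plus strand), the kinase that docks on the CD79 tails, was at 651, 782, 764 and 428 in WT. It was at 680.1, 542, 610.4 and 659.7 in Eμ-Myc, and at 640.4, 659.7, 536 and 567 in the knockout group. All Eμ-Myc and knockout values of Syk fell inside the WT range. Btk (ENSMUSG00000031264.13, chrX:134542336-134583570, minus strand), the kinase that acts on PLCG2, was at 145, 204, 184 and 109 in WT. It was at 185, 173, 179 and 192 in Eμ-Myc and at 157, 167, 176 and 183 in the knockout group, again inside the WT range.

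The adaptor Blnk (ENSMUSG00000061132.13, chr19:40928927-40994535, minus strand) was at 407, 709, 573 and 347 in WT. It was at 566, 653, 488 and 557 in Eμ-Myc and at 522, 550.3, 459 and 459.9 in the knockout group. Plcg2 (ENSMUSG00000034330.10, chr8:117498291-117635142, plus strand) was at 177, 199, 201 and 115 in WT, at 166, 129, 155 and 169 in Eμ-Myc, and at 160.2, 168, 175 and 165 in the knockout group. For both genes the other 2 groups lay inside the WT range.

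Rasgrp3, which links diacylglycerol to Ras (ENSMUSG00000071042.12, chr17:75435896-75529054, plus strand), differed most. Its scaled coverage was 154, 216, 221 and 127 in WT. In Eμ-Myc it was 44.8, 23.9, 27.0 and 28.5, so the highest Eμ-Myc library was below the lowest WT library. The knockout libraries had 69.5, 57.9, 1.70 and 1.59. Knockout libraries 1 and 2 were above all Eμ-Myc libraries, and libraries 3 and 4 far below all of them. In bulk RNA, fewer cells of a type and less RNA per cell cannot be told apart.

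**Figure D1:**
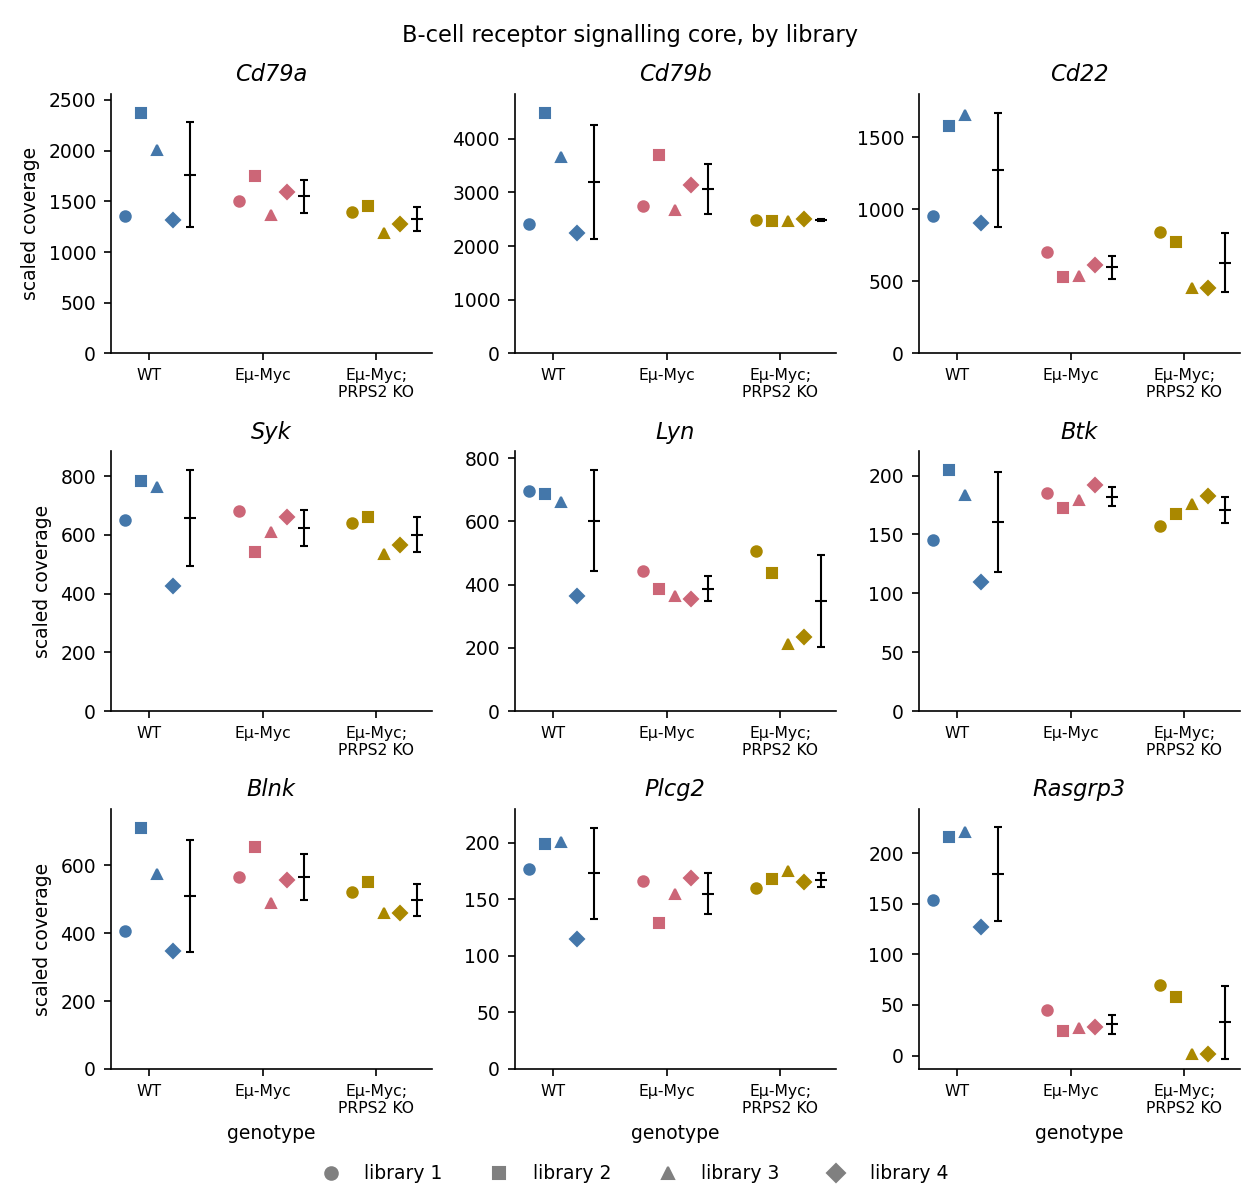
Scaled coverage (vertical axes, linear, a different range for each gene) of the 9 genes by genotype. Each symbol is 1 library, coded by its number, and the black bar is the mean with the SD (n = 4). Rasgrp3 and Cd22 are high in all WT libraries, and Rasgrp3 in the knockout group splits into 2 libraries at 69.5 and 57.9 and 2 at 1.70 and 1.59.

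Levels of different genes are not ranked here, since whether the deposited coverage is taken per base of a gene is not given in the sources used here. Each gene is compared with itself across libraries.

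Set against WT, the Eμ-Myc libraries show which of these genes differ with the transgene. Of the 9 genes 3 were lower and none was higher at an adjusted p under 0.05 (limma with Benjamini-Hochberg adjustment over 12699 genes), where 57.1% of all genes tested were called, 30.1% lower and 27% higher. The share of members called was thus below the share over all genes. The median log2 fold change was -0.13 over the members and -0.11 over all genes tested. Rasgrp3 fell by 2.51 on the log2 scale (SE 0.24, adjusted p = 4.02e-05), a level 5.71-fold lower, and was lower in 4 of 4 libraries. One limma fit of all 12 libraries ended that call (adjusted p = 0.0679). Cd22 fell by 1.05 (SE 0.21, adjusted p = 0.00283), 2.07-fold lower. Their groups did not overlap, as for 28.4% of all genes in that direction.

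Lyn fell by 0.59 (SE 0.20, adjusted p = 0.0332) in the same comparison, 1.51-fold lower, with overlapping groups. That call was lost without any 1 of WT libraries 1, 2 and 3 or Eμ-Myc libraries 2, 3 and 4, where the adjusted p ran from 0.0657 to 0.0817. The other 6 genes did not pass. With library quality weights, which give the libraries unequal weight, Cd79a was called too (-0.47, adjusted p = 0.0145), where 71.2% of all genes were called. Of those calls 46.7% were higher. Without weights the log2 fold changes were -0.14 for Cd79a, -0.011 for Cd79b, -0.041 for Syk, 0.22 for Btk, 0.20 for Blnk and -0.13 for Plcg2. For Cd79b the 95% interval ran from -0.52 to 0.50 and for Btk from -0.18 to 0.62, so differences of such sizes are not excluded by these libraries.

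Set against Eμ-Myc, the knockout libraries show whether these genes differ without PRPS2 on a Myc background. None of the 9 genes was called by limma (adjusted p = 1.00 for each), where 0.00799% of the 12518 genes tested were called: 1 gene, Prps2. At an unadjusted p under 0.05 there was 1 member, Cd79b, where 0.943% of all genes passed. Its log2 fold change was -0.29 (95% interval -0.57 to -0.018, unadjusted p = 0.0393), and its groups did not overlap, as for 0.591% of all genes in that direction. Divided by Pax5 and Ebf1, as described below, they did overlap. The other log2 fold changes were -0.22 for Cd79a, 0.031 for Cd22, -0.053 for Syk, -0.25 for Lyn, -0.094 for Btk, -0.18 for Blnk and 0.12 for Plcg2. Between libraries of one number, which no label pairs, Cd79a, Cd79b, Btk and Blnk were lower in the knockout library each time. The other members went both ways. The share of all genes that do the same was not computed, so this is not read as a result about these genes. With the replicate number as a block, none of the 9 genes was called either. The median over the 9 was -0.18, and over all genes -0.022. Intervals were narrow for Btk (-0.32 to 0.13) and wide for Lyn (-0.91 to 0.41). With library quality weights in limma 6 members were called lower, all but Btk, Blnk and Plcg2. In that fit 57.9% of all genes were called, 48.3% of them higher.

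Rasgrp3 had a log2 fold change of -1.39 against Eμ-Myc with an interval of -4.22 to 1.44, while its plain means were 32.7 ± 36.1 and 31.1 ± 9.36. The sign of that value depended on knockout libraries 3 and 4. Without both of them the log2 fold change was 1.06 (adjusted p = 0.0510), and without knockout libraries 1 and 2 it was -3.84. Lyn had the same signs, at 0.28 (adjusted p = 0.187) without libraries 3 and 4 and -0.78 without libraries 1 and 2. Cd22 was at 0.45 (adjusted p = 0.0865) without libraries 3 and 4 and -0.39 without libraries 1 and 2. The limma adjustment in each of these fits runs over all genes tested with the libraries left. Knockout libraries 1 and 2 were set apart from 3 and 4 with their values known. No p-value is therefore given for fits that keep only libraries 3 and 4. Those given for fits that keep only libraries 1 and 2 have the same limit and are no test of the knockout group. Counts of calls from either kind of fit describe the pair kept only.

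The knockout group was also compared with WT, and this comparison shares the WT libraries with that of Eμ-Myc and WT. Here 2 of 9 genes were lower and none was higher, where 31.6% of 12700 genes were called, 13.7% lower and 17.9% higher. Cd22 fell by 1.02 (SE 0.30, adjusted p = 0.0386), 2.03-fold lower. Rasgrp3 fell by 3.90 (SE 1.23, adjusted p = 0.0456), with an interval of -6.74 to -1.07. The WT and knockout groups of both genes did not overlap, as for 18.3% of all genes in that direction. Both calls were lost without any 1 WT library or without knockout library 3 or 4, where the adjusted p ran from 0.0540 to 0.105 for Cd22 and from 0.0820 to 0.113 for Rasgrp3. Without both knockout libraries 3 and 4 the log2 fold change of Rasgrp3 was -1.45 (adjusted p = 0.0183) and that of Cd22 -0.60 (adjusted p = 0.228). Without libraries 1 and 2 it was -6.35 for Rasgrp3 and -1.43 for Cd22. The split was made with the values known, so the adjusted p-values without libraries 3 and 4 describe libraries 1 and 2 only. The ratio of plain Rasgrp3 means was 5.48 between WT and knockout. Lyn missed the threshold (log2 fold change -0.84, adjusted p = 0.0826). Over 21 alternatives in the processing its log2 fold change ran from -1.45 to -0.31, and 4 of these called it lower. With quality weights 6 members were called lower, the same genes as against Eμ-Myc. In that fit 83.6% of all genes were called, 45.8% of them higher. The remaining members had log2 fold changes between -0.37 for Cd79a and 0.13 for Btk. The median over the 9 was -0.30 and over all genes -0.11.

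**Figure D2:**
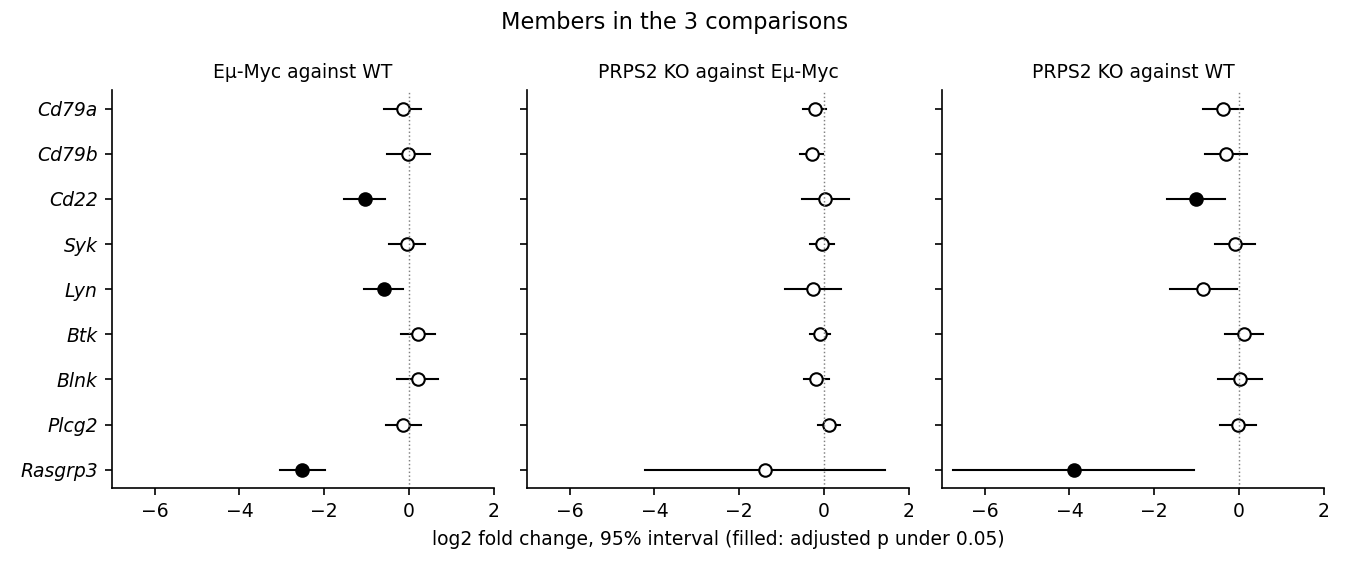
Log2 fold change (horizontal axes) of each of the 9 genes in the 3 comparisons, with the 95% interval, and filled symbols where the adjusted p was under 0.05. Rasgrp3, Cd22 and Lyn are filled on the left, no gene is filled in the middle, and Rasgrp3 has the widest interval in both comparisons with the knockout group.

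The WT libraries differed among themselves in B-cell genes as a whole. Summed B-cell markers, which include the members Cd79a and Cd79b, were 5372, 9801, 8199 and 4967 in WT libraries 1 to 4. They were between 5601 and 7478 in the other 8 libraries. Of the markers that are not members, Pax5 was at 123, 247, 253 and 122 in WT libraries 1 to 4, and Ebf1 at 678, 1199, 981 and 580. Each gene was therefore also divided by the geometric mean of Pax5 and Ebf1, genes of 2 B-cell transcription factors that are not members, a step added after the data were seen. Cd22 then was at 3.31, 2.90, 3.32 and 3.41 in WT. It was at 1.86, 1.505, 1.48 and 1.55 in Eμ-Myc, and at 2.66, 2.29, 1.32 and 1.21 in the knockout group. The SD between WT libraries of Cd22 went from 31.1% to 7.01% of the mean, while that of Lyn went from 26.5% to 34.5% and that of Plcg2 from 23.1% to 24.2%. For Cd22 the WT group remained above all others.

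Rasgrp3 on that scale was at 0.533, 0.397, 0.443 and 0.476 in WT and at 0.118, 0.0677, 0.0746 and 0.0721 in Eμ-Myc. The knockout libraries were at 0.219, 0.171, 0.00492 and 0.00425. Lyn was at 2.41, 1.26, 1.33 and 1.37 in WT, at 1.16, 1.10, 1.00 and 0.900 in Eμ-Myc, and at 1.59, 1.29, 0.616 and 0.629 in the knockout group. On this scale the Lyn groups of WT and Eμ-Myc no longer overlapped, and WT library 1 stood above the rest. In a limma fit with this scaling Cd22 (log2 fold change -1.02, adjusted p = 0.0122) and Rasgrp3 (-2.48, adjusted p = 1.87e-06) were called in Eμ-Myc against WT. Lyn was not (-0.56, adjusted p = 0.182), and against WT no member was called in the knockout group. Cd79b was at 7.25, 10.5, 7.39 and 7.94 in Eμ-Myc and at 7.85, 7.29, 7.14 and 6.67 in the knockout group, which overlap on this scale. Cd79a was at 4.504 ± 0.393 (WT), 4.17 ± 0.530 (Eμ-Myc) and 3.88 ± 0.535 (knockout; SD, n = 4), and Btk at 0.414 ± 0.0614, 0.489 ± 0.00356 and 0.497 ± 0.00843.

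**Figure D3:**
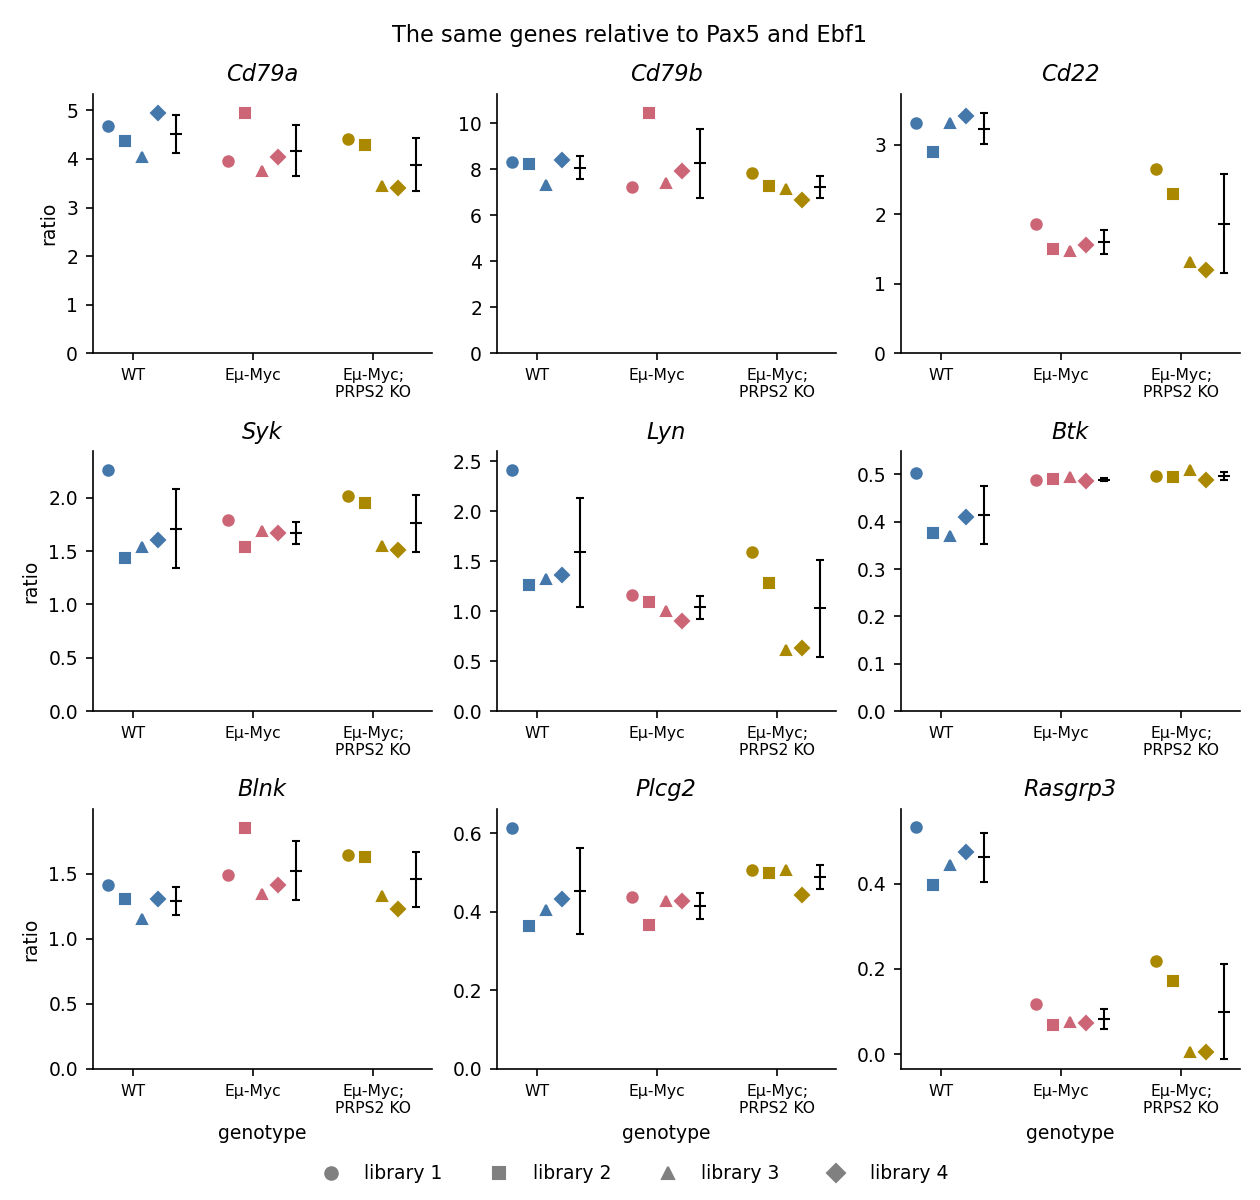
Scaled coverage of each gene divided by the geometric mean of Pax5 and Ebf1 (vertical axes, a ratio without unit), by genotype, with symbols for the 4 libraries and the mean with SD in black. The WT libraries of Cd22 lie between 2.90 and 3.41, above all Eμ-Myc libraries, which end at 1.86.

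Markers of several other cell types moved with these results, and their part in them was not tested. None of the T-cell, NK-cell, plasma-cell or myeloid markers was at 0 in any library. In knockout libraries 1 to 4 the summed myeloid markers (11 of 11 detected) were 16087, 11282, 2912 and 1269. The NK-cell sums (5 of 5 detected) were 419, 293, 17.2 and 16.3, and the plasma-cell sums (4 of 4 detected) 391, 446, 101 and 101. Rasgrp3, Cd22 and Lyn were low in the same 2 knockout libraries in which these sums were low. Myc moved with that split as well, at 1136 and 1672 in knockout libraries 1 and 2 and at 2887 and 3135 in libraries 3 and 4. Erythroid sums did not fall in libraries 3 and 4 (88.3, 73.1, 102 and 104 in knockout libraries 1 to 4). Platelet sums were high in library 1 only (131, 31.4, 32.1 and 37.0). Of the plasma-cell markers Prdm1, Xbp1 and Jchain were low in libraries 3 and 4, but Sdc1 was not (7.03, 7.57, 11.8 and 9.65). In Eμ-Myc the myeloid sums ran from 5681 to 16446 and in WT from 8403 to 26643, which overlap. NK sums ran from 70.1 to 169 in Eμ-Myc and from 269.8 to 1085 in WT, which do not. Plasma-cell sums ran from 335 to 429 in Eμ-Myc and from 421 to 696 in WT. Lyn is known to be expressed by myeloid cells as well, and WT library 1, with the highest Lyn ratio, had the highest myeloid sum. Lyn coverage was 686 and 660.0 in WT libraries 2 and 3, with myeloid sums of 8403 and 8621. It was 363 in WT library 4, with a myeloid sum of 15243, and 388 in Eμ-Myc library 2, with 16446. WT library 4, with the lowest Lyn coverage in WT, had the highest T-cell and NK sums.

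**Figure D4:**
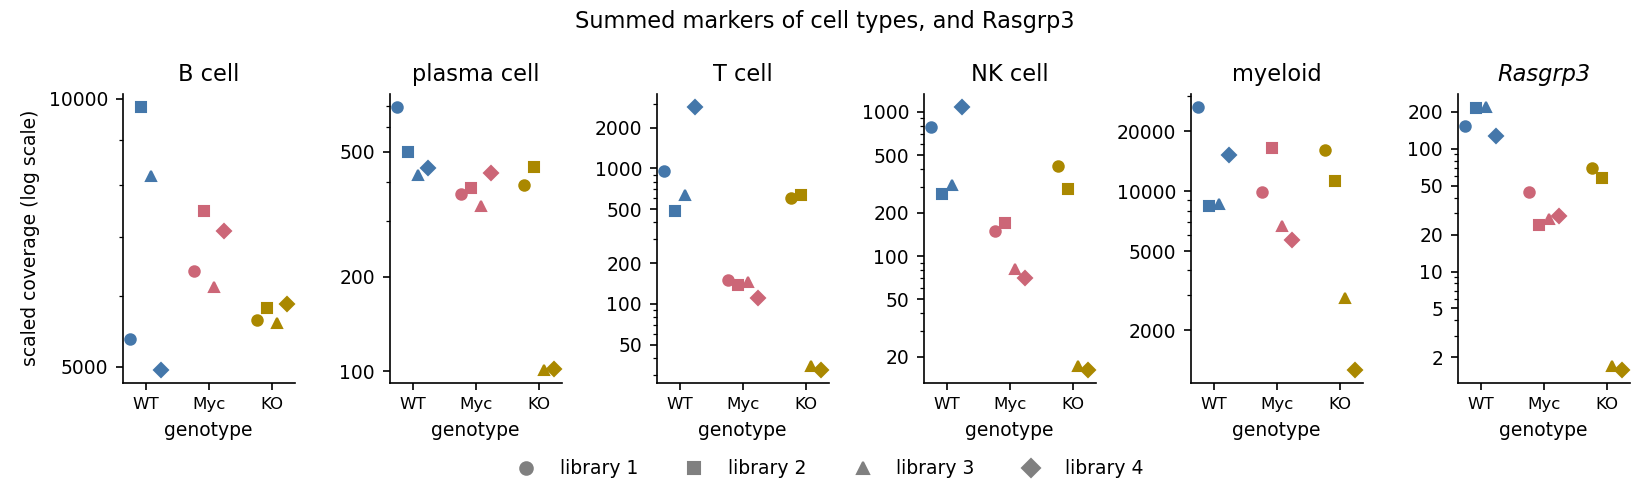
Summed scaled coverage of marker genes of 5 cell types, and scaled coverage of Rasgrp3, by library (vertical log axes of different ranges). Knockout libraries 3 and 4 (triangle and diamond) are the lowest in plasma-cell, T-cell, NK-cell and myeloid sums and in Rasgrp3, while their B-cell sums of 5601 and 5891 lie beside those of libraries 1 and 2.

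Rasgrp3 belongs to a family of Ras activators, of which Rasgrp1 and Rasgrp2 were tested beside it and did not pass. Rasgrp1, the T-cell member that B cells also express, had means of 90.5, 69.9 and 78.5 in WT, Eμ-Myc and the knockout group (adjusted p = 0.164 in Eμ-Myc against WT). Rasgrp2 had 364, 393 and 382 (adjusted p = 0.397). Rasgrp3 made up 19.2% to 34.4% of the summed coverage of these 3 genes in WT and 4.63% to 9.55% in Eμ-Myc. In the knockout libraries its share was 13.7%, 11.3%, 0.349% and 0.342%. Such shares are compared between libraries only. Lyn as a share of the Src-family kinases Lyn, Blk, Fyn and Fgr was 49.8%, 52.7%, 51.6% and 34.3% in WT libraries 1 to 4 and 52.1% to 53.3% in Eμ-Myc, so WT library 4 alone set the low end. Fyn and Fgr were called lower in Eμ-Myc too. Fyn was highest in WT library 4 (431), where the T-cell sum was 2851, and Fgr in WT library 1 (271), where the myeloid sum was 26643.

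Genes whose profile over the 12 libraries was most like that of 3 members were named by a rule. The measure was the root mean square difference of log2 profiles, each centred on its own mean, among 9655 genes. For Rasgrp3, the member with the largest decrease, they were Icosl (0.24), Egr3 (0.25) and Trim7 (0.29). Icosl was at 160, 182, 185 and 119 in WT, at 48.0, 33.5, 26.1 and 23.4 in Eμ-Myc and at 77.8, 59.0, 1.59 and 0.954 in the knockout group, so it too was near 0 in knockout libraries 3 and 4. For Btk, the member with the highest fold change in Eμ-Myc against WT, which did not pass, they were Snx25 (0.10), Myo1c (0.10) and Snx2 (0.10). For Cd79a they were Cxxc5 (0.085), Cd79b (0.10) and Prr5 (0.11). Among the members themselves Cd79a with Cd79b (0.10) and Syk with Plcg2 (0.12) were closest, and Cd22 was closest to Lyn (0.30). Every pair with Rasgrp3 was at 1.67 or more.

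Around these 9 genes, 74 further genes of the receptor pathway were taken by role, of which 72 were tested in each comparison and Ighm and Ighd were not analysed here. In Eμ-Myc against WT 47 of 72 were lower and 2 higher, where 30.1% of all genes tested were lower and 27% higher, and their median log2 fold change was -0.59 against -0.11 for all genes. The 2 higher genes were Hras, of the Ras and MAPK arm, and the kinase gene Akt1. With scaling on Pax5 and Ebf1 both of these calls were lost and 23 genes were lower. In that fit 24% of all genes were called, 54.7% of them higher. In the same comparison the T-cell sums (111 to 149 against 483 to 2851) and the NK-cell sums were lower without overlap, and their part in these counts was not tested. By role, 6 of 6 adaptors, 2 of 3 further kinases, 10 of 12 genes of the protein kinase C and NF-kB arm and 8 of 11 calcium genes were lower. Among inhibitors of the receptor 11 of 19 were lower and none was higher. In the PI3K and Vav group 5 of 8 were lower, and in the Ras and MAPK group 4 of 11.

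Hras was at 86.5, 72.4, 62.8 and 78.2 in WT and at 94.5, 136, 109 and 101 in Eμ-Myc (log2 fold change 0.55, adjusted p = 0.00874). Akt1 was at 639, 496, 471 and 401 in WT and at 663, 726, 721 and 705 in Eμ-Myc (0.51, adjusted p = 0.0109). Both were higher in 4 of 4 Eμ-Myc libraries than in any WT library, which the rule for naming genes required. Cd5, an inhibitor of the receptor that T cells carry too, was at 45.7, 25.3, 32.6 and 184 in WT and at 6.82, 4.57, 7.01 and 4.76 in Eμ-Myc. Its log2 fold change was -3.07 (adjusted p = 0.00148), and its highest value was in WT library 4, where the T-cell sum was 2851. Cr2, a complement receptor of B cells, was at 117, 177, 193 and 84.1 in WT and at 41.9, 19.4, 15.2 and 20.2 in Eμ-Myc. It fell by 2.57 (adjusted p = 0.000349), while Cd81, a membrane protein of B cells and other cells, did not pass (0.11). Nfatc2, a calcium-regulated transcription factor of T and B cells, was at 106, 97.5, 122 and 146 in WT. It was at 42.4, 22.3, 28.5 and 28.9 in Eμ-Myc (log2 fold change -1.95, adjusted p = 5.48e-05). Ptpn6, chosen after its values were seen since CD22 recruits its product, fell by 1.00, from a mean of 1314 in WT to 653 in Eμ-Myc (adjusted p = 0.000226).

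Between knockout and Eμ-Myc libraries none of the 72 genes was called by limma or had an unadjusted p under 0.05, and the median log2 fold change was -0.0011. The 3 with the smallest p, none passing, were Sos1 (log2 fold change 0.37), Cd72 (-0.23) and Dok3 (-0.31). This median pools knockout libraries on either side of Eμ-Myc, as in Nfatc2, at 73.3, 81.1, 2.87 and 3.07. Without libraries 3 and 4 the median was 0.30, with 7 genes higher and none lower, where 3.99% of all genes were called, 61.7% of them higher. Without libraries 1 and 2 it was -0.28, with 1 higher (Fcgr2b) and 24 lower, where 26.6% were called, 35.9% of them higher. Quality weights called 40 genes lower and 7 higher, where 57.9% of all genes were called, 48.3% of them higher. Against WT 26 of 72 were lower and none was higher in the knockout group, where 13.7% of all genes tested were lower and 17.9% higher. Scaling on Pax5 and Ebf1 took this count to 0, where 9.06% of all genes were called, 89.7% of them higher. The replicate block took it to 9, where 14.9% were called, 68.8% of them higher. The median was -0.62, and -0.11 over all genes. It was -0.33 without knockout libraries 3 and 4 and -0.92 without libraries 1 and 2. The largest decreases by the rule were in Ubash3b (-1.75), Pag1 (-1.40) and Sh3kbp1 (-1.36). Without knockout libraries 3 and 4 these were -0.77 (adjusted p = 0.0502), -0.69 (adjusted p = 0.0202) and -0.67 (adjusted p = 0.0382). The genes were picked as the largest decreases and the split was made with the values known, so these p-values are descriptive only. Ubash3b was at 37.7, 27.0, 32.2 and 36.9 in WT and at 22.5, 16.5, 4.99 and 4.24 in the knockout group. Pag1 was at 85.8, 72.1, 88.0 and 73.6 in WT and at 50.9, 47.4, 18.4 and 17.8 in the knockout group. In both, knockout libraries 3 and 4 were the lowest, while the lack of overlap with WT was part of the rule that named them. Ubash3b encodes a phosphatase that limits receptor signals, and Pag1 a membrane adaptor that recruits the Src-family inhibitor CSK. Sh3kbp1, an adaptor, was at 509.7, 496, 506 and 685 in WT and at 343, 340.1, 125 and 138 in the knockout group. The count of 26 called genes fell to 0 without WT library 2 or 3 or without knockout library 3 or 4, to 1 without WT library 1 (Cblb) and to 5 without WT library 4 (Grb2, Dok3, Bcl10, Ptpn6 and Map2k1), and was 49 without knockout library 1. Calls over all genes moved too, to between 4.69% and 12.1% in the fits with 0 to 5 list genes and to 55% without knockout library 1. Of these calls 70.4% to 90.9% were higher in the former fits and 46.9% without knockout library 1.

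**Figure D5:**
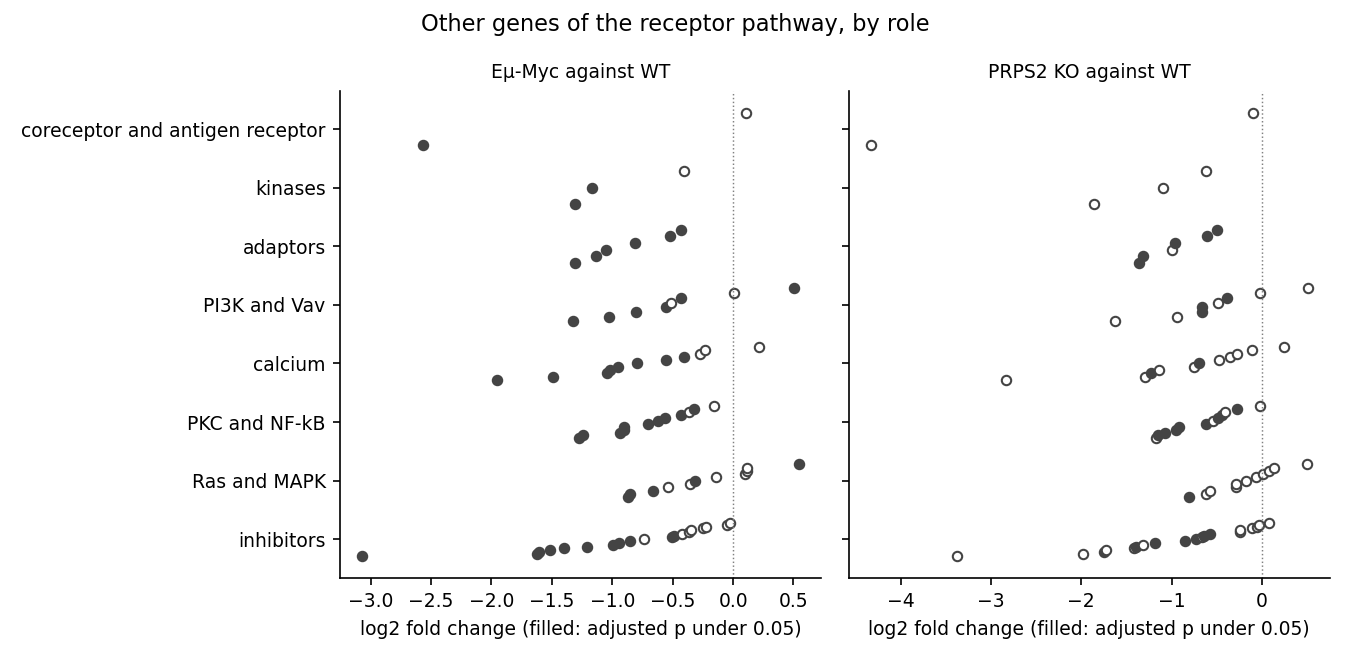
Log2 fold change (horizontal axes) of the 72 further pathway genes tested, grouped by role, for Eμ-Myc against WT and for the knockout group against WT. Filled symbols have an adjusted p under 0.05. In Eμ-Myc against WT 47 filled symbols lie below 0 and 2 above it, Hras and Akt1; in the knockout group against WT 26 lie below 0 and none above it.

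Genes of the surrogate light chain and of recombination act before the mature receptor forms. They were listed with Vpreb3, which had a mean of 454 in WT and is not read here as a mark of an early stage. Of the genes listed, Vpreb3, Rag1 and Dntt were above the minimum of the filter in all Eμ-Myc and WT libraries. Vpreb3 rose by 1.69 on the log2 scale in Eμ-Myc against WT (adjusted p = 0.000843), from 454 to 1403 in the means, and Rag1 rose by 2.92 (adjusted p = 3.56e-05). Dntt did not pass (0.094, adjusted p = 0.859). The next 3 genes entered that comparison through the Eμ-Myc libraries, so their values are given without a test. Rag2 was at 0.252, 0.479, 0.198 and 0.468 in WT and at 7.65, 9.06, 8.81 and 9.86 in Eμ-Myc. Igll1 ran from 0.287 to 1.29 in WT and from 2.21 to 10.7 in Eμ-Myc, and Vpreb1 from 0.396 to 1.40 and from 2.67 to 8.75. Vpreb2 was below the minimum in every library and was not tested. Between knockout and Eμ-Myc libraries none of the other 6 genes passed (adjusted p = 1.00), and Rag2 had a log2 fold change of -0.60 with an unadjusted p of 0.00568.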

How the data were processed

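RNA was measured in 12 libraries of splenic B lymphocytes, 4 per genotype. Each library has 1 file that the authors deposited, without a header, of coverage per gene symbol (a signal given to 1 decimal). The submitters' processing notes name mm10, DESeq and R 4.3.3 without a role. The aligner, the counting step, strand use and the annotation are not given in the sources used here. Read depth is unknown, so no counting interval is given. Total coverage ran from 1277305.5 to 1885768.9 per library, and 91.6% of values above 0 were not whole numbers.

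Scaling factors were trimmed means (30% of ratios, 5% of levels at each end) of log ratios to the geometric mean, over 10992 genes of at least 1 in every library. For each comparison limma 3.58.1 (R 4.3.3, trended prior, robust empirical Bayes, two-sided) was fitted to log2(scaled coverage + 0.5) of its 8 libraries, for genes of at least 1 in at least 4 of them. Benjamini-Hochberg adjustment ran over all genes tested, and genes with an adjusted p under 0.05 were called. Fold changes are on this log2 scale, which understates changes of low genes. The values are not counts, so no count model was used. Figures were drawn with matplotlib 3.10.9 in Python 3.11.15.

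The members, gene lists and tests were chosen with earlier results of these data known. Named genes were the members and, from the pathway list, the 3 largest increases and decreases among called genes with a mean of at least 8 and groups that do not overlap, or the 3 smallest p where none was called. The 3 genes most like a member were named for 3 members, among genes with a mean of at least 8. Genes of a count of 5 or fewer that was printed were named as well. Some listed genes are not reported here and were left out of the lists and sums. Gene positions are from GENCODE M21 for mm10.

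Simulated data in which 200 genes differ by 1.5 (log2) were used to test the fit. With a common spread it recovered 93.5% for Eμ-Myc against WT, 81.5% for the knockout group against Eμ-Myc and 72.5% against WT, with 6.03%, 6.32% and 6.45% false among calls. With each group's own spread it recovered 92.5%, 88% and 69%, and the false shares were 5.61%, 15.8% and 9.21%. Noise was drawn independently for each gene and library. The split of the knockout libraries, which many genes share, was not simulated, so these shares do not cover it.

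The labels number the libraries 1 to 4. Between knockout and Eμ-Myc libraries of one number, the correlation of departures from the group mean was 0.659, 0.193, 0.255 and 0.608. No label pairs these libraries, and the main fits took them as unpaired. The best match had the same number for libraries 1 and 4, but not for 2 (best with 1) and 3 (best with 4). Alternatives were other scalings, filters and pseudocounts, one fit of all 12 libraries, the replicate number as a block, quality weights, leaving out each library, and leaving out knockout libraries 1 and 2 or 3 and 4.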

Additional observations from a re-analysis of the deposited data

Results flagged for a closer look

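Of the 27 sets of 4 values checked (9 genes in 3 groups), 1 held a library far from the others. Lyn in WT library 4 was at 363, while the nearest WT library was at 660.0 and the farthest at 696. That gap is 0.892 of the whole range, above Dixon's critical value for 4 libraries. Chance flags about 1 in 20 such groups. Relative to Pax5 and Ebf1 the Lyn ratio in that library was 1.37, beside 1.26 and 1.33 in WT libraries 2 and 3.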

How the results depend on the processing

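Of 547 recomputed fold changes of the 9 genes, 462 kept their direction and side of the threshold, 27 lost a call, 15 gained one and 43 changed sign; the cause was not tested. In Eμ-Myc against WT, Cd22 was called under all 19 alternatives and Rasgrp3 under all but the fit of all 12 libraries (adjusted p = 0.0679), which called Cd22 as its 1 member. Leaving out 1 library gave 2 to 3 members and 43 to 56 list genes, and scaling on Pax5 and Ebf1 23 list genes. Counts here that stand without the share of all genes called are not read as results about these genes. In the knockout group against Eμ-Myc, members and list stayed at 0 when 1 library was left out. Quality weights called 6 members (Cd79a, Cd79b, Cd22, Syk, Lyn and Rasgrp3, all lower) and 47 list genes, out of 7246 genes in all. Without knockout libraries 1 and 2 the counts were 2 (Lyn and Rasgrp3) and 25, and without 3 and 4 they were 0 and 7. For the knockout group against WT, leaving out 1 library gave 0 to 3 members and 0 to 49 list genes. There, no filter gave 1 (Cd22) and 14, a filter of 10 in every library 1 member (Cd22; Rasgrp3 could not enter), one fit of all libraries 44 list genes, quality weights 6 and 64, scaling on Pax5 and Ebf1 0 and 0. Without knockout libraries 1 and 2 the list count was 55, where 69.8% of all genes were called. Of these list genes 51 were lower and 4 higher, Hras and Akt1 among them. Without 3 and 4 (11.5%) the counts were 1 (Rasgrp3) and 5 (Pag1, Nfkb1, Bcl10, Map2k1 and Sh3kbp1).

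Signs changed as follows (log2). In Eμ-Myc against WT, median-of-ratios scaling gave 0.032 for Cd79b and 0.0014 for Syk, scaling on Pax5 and Ebf1 0.018 for Cd79b, and quality weights -0.16 for Blnk; leaving out 1 library spanned -0.27 to 0.015 for Cd79a, -0.16 to 0.17 for Cd79b and -0.23 to 0.056 for Syk. In the knockout group against Eμ-Myc, Cd22 was at -0.33 with quality weights and -0.39 without knockout libraries 1 and 2. Without libraries 3 and 4 Syk was at 0.066, Lyn at 0.28 and Rasgrp3 at 1.06, and scaling on Pax5 and Ebf1 gave 0.064 for Syk and 0.023 for Btk. Leaving out 1 library spanned -0.13 to 0.17 for Cd22 and -0.12 to 0.00079 for Syk. Against WT, Plcg2 was at 0.045 under median-of-ratios scaling, 0.010 without knockout libraries 1 and 2 and 0.13 with Pax5 and Ebf1 scaling. Blnk was at -0.038 with total coverage scaling, -0.32 with quality weights, -0.091 without knockout libraries 1 and 2 and -0.056 when scaled on genes of at least 10. Syk was at 0.025 without libraries 3 and 4 and 0.052 with Pax5 and Ebf1 scaling. Leaving out 1 library spanned -0.15 to 0.20 for Blnk, -0.20 to 0.068 for Plcg2, -0.29 to 0.0035 for Syk and -0.046 to 0.25 for Btk. None of these values passed the threshold except Cd22 with quality weights (adjusted p = 0.0163).

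With the replicate block, the knockout group against WT had 0 members and 9 list genes called; these samples share only a number (r of 0.397, -0.423, 0.136 and -0.0632 for libraries 1 to 4), as do Eμ-Myc and WT (0.232, -0.0988, 0.264 and 0.136), where the block left 3 members called. By the labels, knockout and Eμ-Myc libraries share only a number too, and between them the block changed no call. Scaling moved the median of all genes in Eμ-Myc against WT from -0.11 to between -0.19 and -0.066, and the share of higher genes among calls from 47.4% to between 42.0% and 54.7%; for the knockout group against WT that share was 56.8%, and 89.7% with Pax5 and Ebf1 scaling. The 2 scalings on other gene sets were added after the data were seen. The precision rests on 4 libraries per group, and no depth is known.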
